A study of Mus musculus with 12 samples.

Results

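The genes described here encode the kinase complex that destroys beta-catenin and the transcription factors through which beta-catenin acts. They were listed by name, with no value in the rule. CHIR99021, the compound given to a group of these lymphoma cells, inhibits the GSK3 kinase of that complex. Of the 10 genes listed (Gsk3b, Axin1, Axin2, Apc, Ctnnb1, Csnk1a1, Btrc, Lef1, Tcf7 and Tcf7l2), 9 had a probe set annotated to that gene alone, each of them a single probe set. Tcf7 had none in the annotation used and is not analysed here. Lef1 did not pass the filter on dim probe sets, which left 8 of the 10 among the 12961 genes tested.

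In cells without a Wnt signal, beta-catenin (Ctnnb1) is held by the scaffolds Axin1, Axin2 and Apc. There it is phosphorylated first by casein kinase 1 alpha (Csnk1a1) and then by GSK3. The phosphorylated protein is bound by beta-TrCP (Btrc), the substrate receptor of a ubiquitin ligase, and degraded. When GSK3 is inhibited, beta-catenin can accumulate and bind TCF and LEF factors on DNA, and Axin2 and Lef1 are widely used transcriptional readouts of that step. GSK3 and beta-TrCP also act on many other proteins, and these mRNA data do not measure the activity of the kinase or the amount of beta-catenin protein.

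Expression was measured on 12 arrays of B lymphoma cells from primary cultures of tumours of l-MYC;B1-8f mice (C57BL/6J x BALB/c), in which transduced TAT-Cre had been used to remove the B cell receptor (BCR). The tumours, numbered 2567, 2646 and 2676, each gave 1 array to each of 4 groups sorted after 4 days of mixed culture. Untreated mixed cultures gave the BCR-positive and the BCR-negative group, cultures exposed to CHIR99021 gave a treated BCR-negative group, and BCR-independent cells came from untreated cultures shared with that tumour's BCR-positive cells. BCR-independent cells are derivatives of BCR-negative tumours obtained by prolonged culture, and each array holds a single clone (clone 8 of tumour 2567, clone 7 of 2646 and clone 1 of 2676). At that time BCR-negative cells were being lost from the mixed cultures, per the series' design text, whereas BCR-independent clones were not. All groups share the MYC-driven mouse model, and the labels give no dose of the inhibitor. No treated BCR-positive cells are among the 12 arrays.

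The sort was checked on the segment that Cre removes, the heavy chain V segment of B1-8f. Its probe set, which may also read similar segments, gave 9.45 to 9.97 in BCR-positive and 5.85 to 6.97 in untreated BCR-negative cells. It gave 4.93 to 6.26 in treated and 3.72 to 4.21 in BCR-independent cells, so that signal above that of the BCR-independent clones remained in both BCR-negative groups. An unexplained (2) closes the titles of 4 arrays, those of BCR-positive and untreated BCR-negative cells from tumours 2646 and 2676. In those 2 tumours this title mark separates treated from untreated BCR-negative cells, so that treatment and mark cannot be told apart there. All 4 arrays of tumour 2567 are without it, as are all treated and all BCR-independent arrays. Of the B cell markers, 7 were measured, and their mean log2 signal lay between 7.49 and 8.37 on all arrays. However, 1 of the 7 lay below the array median on every array, namely Ms4a1 at 2.55 to 3.19, which was not tested. T cells are rich in Tcf7 and Lef1. The 10 measured T cell markers had means of 3.12 to 3.30, below the array medians of 3.32 to 3.44, and 5 of the 10 lay below the median on every array. Cd8a (3.44 to 3.83) and Cd247 (3.45 to 3.80) lay above it on 12 of 12 arrays, and Thy1 on 10 of 12.

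Levels are given as log2 signal, and a difference of 1 is a doubling. Differences were fitted with limma over all 12 arrays with tumour as a block, and a gene is called when its p-value, adjusted by Benjamini-Hochberg over all 12961 genes, is under 0.05. Each group mean rests on n = 3 arrays, 1 per tumour, and its SD is the spread over those tumours. The SE, interval and p-value of a difference rest instead on the spread left after group and tumour are fitted. That spread is pooled over all 12 arrays and moderated by limma. Probe sets differ in brightness, so levels are compared between groups and not between genes. Overlap between groups is described for single genes. The share of all genes without overlap was not counted, so a lack of overlap has no background to be read against.

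Exposure of BCR-negative cells to CHIR99021 was set against untreated BCR-negative cells to ask how cells that lack the receptor respond to GSK3 inhibition. Of the 8 genes tested, Btrc was lower in treated cells and the other 7 were not called. Axin2 differed by less than its spread between tumours and Lef1 was not above the dim range of the arrays in any group. The count of 1 in 8 stands beside 1.91% of all genes called in this comparison (0.849% in the lower direction), and at an unadjusted p under 0.05 it was again 1 of 8, beside 16.6% of all genes. The median difference of the 8 genes was -0.10, against 0.0256 for all genes.

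**Figure D1:**
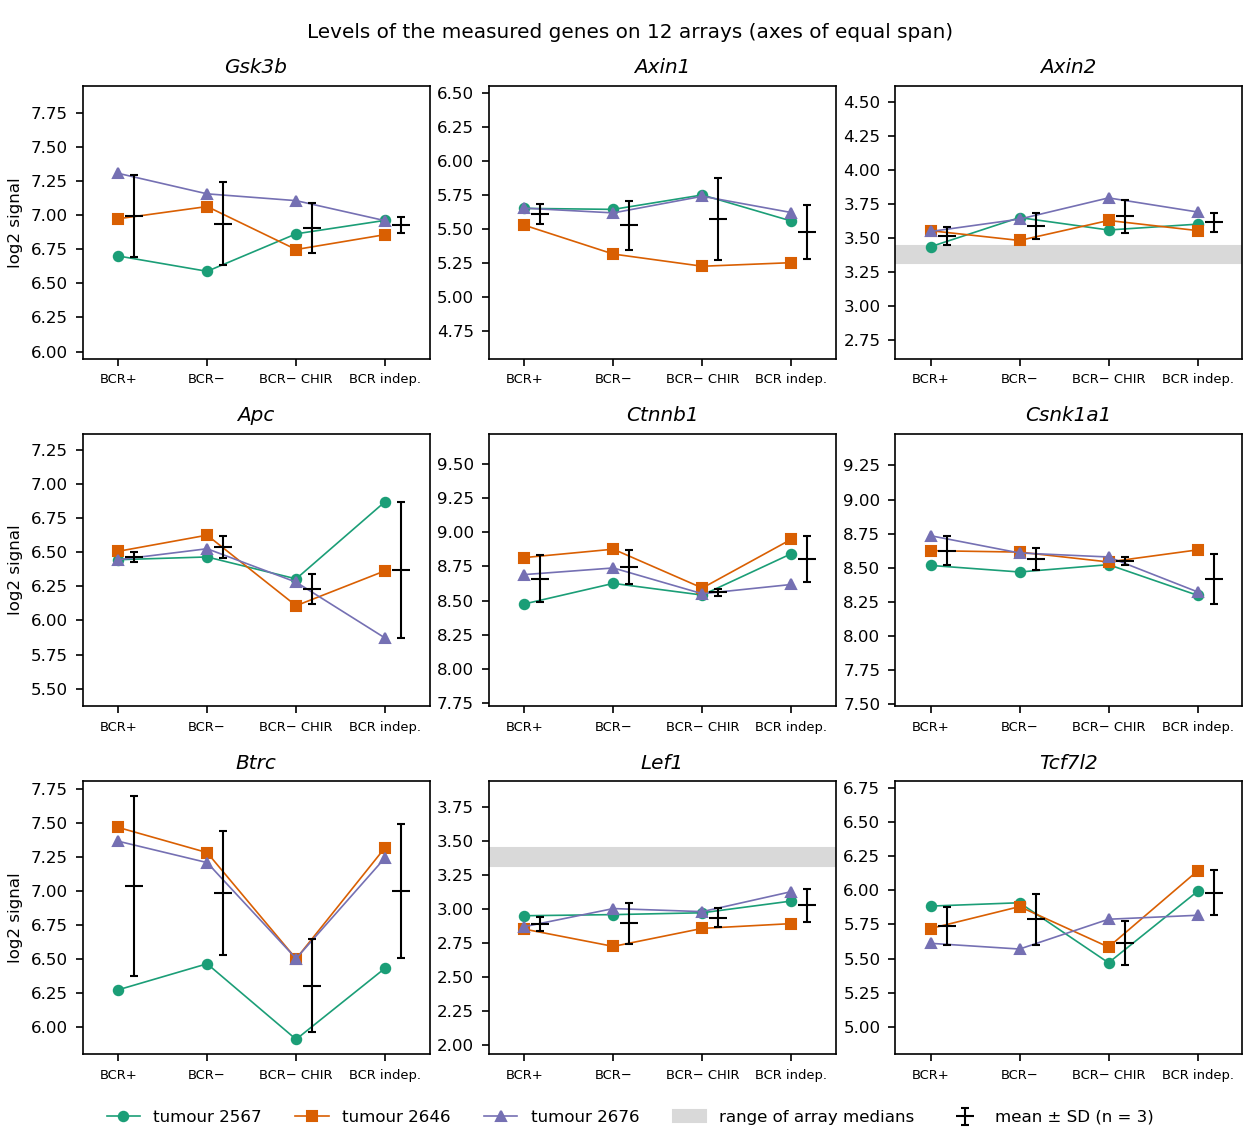
Log2 signal (y axis) of the 9 measured genes in untreated BCR-positive (BCR+), untreated BCR-negative (BCR−), CHIR99021-treated BCR-negative (BCR− CHIR) and BCR-independent (BCR indep.) cells; coloured points joined by lines are the arrays of 1 tumour, black dashes and bars are the mean and SD of 3 arrays, and each panel spans the same number of log2 units. Btrc is lowest in the treated array of each tumour, Axin2 lies at the upper edge of the grey band of array medians (3.32 to 3.44) or just above it, and Lef1 below it.

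Btrc, an F-box protein that recognises phosphorylated beta-catenin, read 6.47, 7.28 and 7.21 in untreated BCR-negative cells of tumours 2567, 2646 and 2676. In treated cells of the same tumours it read 5.91, 6.50 and 6.50. The treated array was the lowest of the 4 arrays in each tumour, but the groups overlapped slightly, since tumour 2567 had less Btrc signal than the others in every group. The group means were 6.99 ± 0.45 untreated and 6.31 ± 0.34 treated (SD, n = 3), and the fitted difference of -0.68 (SE 0.11, 95% interval -0.93 to -0.43, limma adjusted p = 0.0304) is a 1.60-fold lower level. Within tumours it was -0.55, -0.78 and -0.70. The first of these comes from tumour 2567, where no array carries the title mark.

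Btrc was the one gene of the 8 whose fall in treated cells was also called against BCR-positive cells. There it read 6.27, 7.47 and 7.37, with a mean of 7.04 ± 0.66 (SD, n = 3). The difference of treated from BCR-positive cells was -0.73 (SE 0.11, limma adjusted p = 0.0325), lower in 3 of 3 tumours. In that comparison 1 of 8 was called, beside 0.802% of all genes (0.447% in the lower direction), and 1 of 8 had an unadjusted p under 0.05, beside 15.6%. The call was lost without tumour 2646 (-0.61, limma adjusted p = 0.331) or 2676 (-0.66, adjusted p = 0.203), with the title mark as a term (-0.57, adjusted p = 0.157) and without the tumour block (adjusted p = 0.829). This comparison shares the treated arrays with the former one and is not a separate observation of them. In BCR-independent cells Btrc read 6.43, 7.32 and 7.24, with a mean of 7.00 ± 0.49 (SD, n = 3). Treated cells differed from these by -0.69 (SE 0.11, 95% interval -0.94 to -0.44, limma adjusted p = 0.0567), which was not called, though lower in 3 of 3 tumours. Both groups of that last comparison are without the title mark in every tumour.

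The 3 groups without inhibitor had mean Btrc levels of 6.99 to 7.04. BCR-negative cells differed from BCR-positive cells by -0.0503 (95% interval -0.30 to 0.20), and BCR-independent cells from BCR-negative cells by 0.0132 (95% interval -0.24 to 0.26). Of the variance of Btrc over the 12 arrays, 60.9% lay between tumours, 35.7% between groups and 3.45% in neither, against medians of 39.8%, 20.7% and 32.2% over all genes tested.

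The Btrc call depended on the design of the fit. With the title mark as a further term the difference of treated from untreated BCR-negative cells was -0.52 (limma adjusted p = 0.172), and without the tumour block it was -0.68 (adjusted p = 0.761). The title mark term rests on tumours 2646 and 2676 set against tumour 2567 alone, over all 4 groups. Leaving out tumour 2567, 2646 or 2676 gave -0.74, -0.63 and -0.67 with adjusted p-values of 0.0571, 0.351 and 0.207 from limma, so that the call needed all 3 tumours while the size changed little. In those fits 17, 1 and 10 of all genes were called, against 248 with all tumours. The mean log2 signal of the 7 B cell markers was 7.49 to 7.96 in treated and 7.84 to 8.34 in untreated BCR-negative arrays. Of 6 of them tested, 0 were called by limma and 3 were lower at an unadjusted p under 0.05 (Ebf1 -1.21, Pax5 -0.46 and Cd79b -0.42), beside 16.6% of all genes. The others differed by -0.37 (Cd22), -0.00022 (Blnk) and 0.0407 (Cd79a). The 7 measured myeloid markers had means of 3.34 to 3.48 in treated and 3.21 to 3.54 in untreated BCR-negative arrays. Of 4 of them tested 0 were called by limma, and 1 was lower at an unadjusted p under 0.05 (Itgam, -0.52). The 4 did not move together, with 2 higher and 2 lower in treated cells. Their median difference was 0.128 and their highest 0.399. The 8 stromal markers had means of 3.26 to 3.44 and 3.24 to 3.38, with 0 of 5 tested at an unadjusted p under 0.05 and 0 called by limma. On every array 4 of the 7 myeloid and 4 of the 8 stromal markers lay below the median. The part of these markers in the Btrc result was not tested. In such bulk samples fewer cells of a type and less RNA per cell cannot be told apart.

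**Figure D2:**
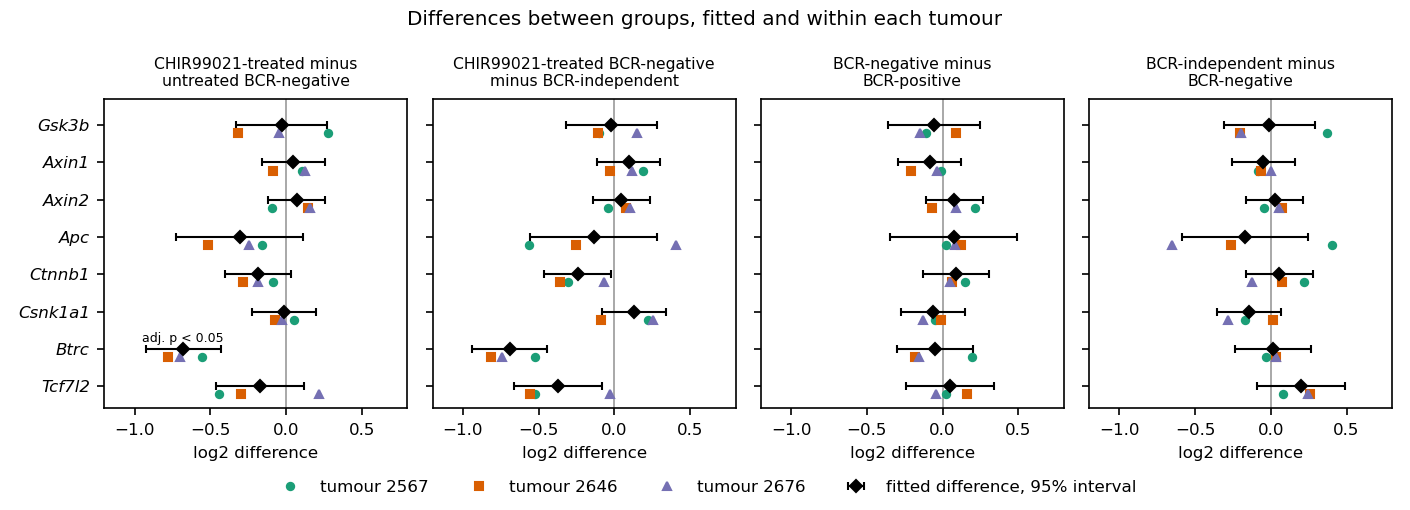
Log2 differences (x axis) of the 8 tested genes in 4 of the 6 comparisons; black diamonds with bars are the fitted differences with their 95% intervals and coloured points below them are the differences within each tumour. Btrc stands at -0.68 in treated against untreated BCR-negative cells and at -0.69 against BCR-independent cells, and all other fitted differences lie between -0.37 and 0.20.

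Axin2, a scaffold of the complex and itself a target of beta-catenin, read 3.65, 3.48 and 3.64 in untreated BCR-negative cells of tumours 2567, 2646 and 2676. In treated cells it read 3.56, 3.63 and 3.79. The groups overlapped, with treated cells higher in 2 of 3 tumours. The difference was 0.0704 (SE 0.0838, 95% interval -0.12 to 0.26, limma adjusted p = 0.772), so that an increase of more than 0.26 lay outside the interval. All 12 arrays exceeded their own median, which was 3.32 to 3.44, by little, and signals this near the dim range are compressed by the normalization. Within tumours 2567, 2646 and 2676 the difference was -0.0912, 0.15 and 0.16. Without tumour 2567, the one in which no array carries the title mark, it was 0.15. In BCR-positive cells Axin2 read 3.44 to 3.55 and in BCR-independent cells 3.55 to 3.69. Treated cells were above BCR-positive cells in 3 of 3 tumours, by 0.12, 0.0749 and 0.25, with no overlap of the groups. The fitted difference of 0.15 was not called (limma adjusted p = 0.446). BCR-independent cells also did not overlap BCR-positive cells, by a narrow margin, and were not called (limma adjusted p = 0.748).

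Lef1, the other commonly used readout and a DNA-binding partner of beta-catenin, read 2.96, 2.72 and 3.002 in untreated BCR-negative cells and 2.97, 2.86 and 2.98 in treated cells. It lay below its array's 40th percentile (3.06 to 3.16) on 12 of 12 arrays and was therefore left out of the tests. Over all groups its signal was 2.72 to 3.13. With no filter on dim probe sets the difference of treated from untreated BCR-negative cells was 0.0411 (SE 0.0690, limma adjusted p = 0.901). Lef1 was thus not detectable above the dim range in any of the 4 groups, which does not show that its mRNA was absent.

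Tcf7l2, a TCF factor that binds beta-catenin, read 5.91, 5.88 and 5.57 in untreated and 5.47, 5.58 and 5.79 in treated BCR-negative cells. The tumours disagreed, with differences of -0.44, -0.30 and 0.22, and the fitted -0.17 (SE 0.13, limma adjusted p = 0.589) was not called. Its highest group mean was in BCR-independent cells, which read 5.99, 6.14 and 5.82. Treated cells lay below them in 3 of 3 tumours, with no overlap, by a fitted difference of -0.37 (SE 0.13, limma adjusted p = 0.295). BCR-independent cells were above BCR-negative cells in 3 of 3 tumours by a fitted 0.20 (SE 0.13, limma adjusted p = 0.848). By group means the order was BCR-independent (5.98), BCR-negative (5.79), BCR-positive (5.74) and treated (5.61), and no neighbours in it differed at the threshold. Of the 8 genes Tcf7l2 had the highest share of variance between groups, 49.9%, a share larger than in 90.0% of all genes tested.

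Ctnnb1, which encodes beta-catenin itself, read 8.63, 8.88 and 8.74 in untreated BCR-negative cells. In treated cells it read 8.54, 8.59 and 8.55, lower in 3 of 3 tumours. The treated arrays had an SD of 0.03, against 0.13 to 0.17 in the other groups. The groups did not overlap, but the difference of -0.19 (SE 0.0975, 95% interval -0.41 to 0.0325, limma adjusted p = 0.387) was not called. It was -0.0235 with the title mark as a term and -0.0857 within tumour 2567, where no array carries the mark. BCR-positive cells read 8.48 to 8.82 and BCR-independent cells 8.62 to 8.95. The mean of treated cells, 8.56 ± 0.03, was the lowest and that of BCR-independent cells, 8.80 ± 0.17 (SD, n = 3), the highest, a difference of -0.24 (SE 0.0975, limma adjusted p = 0.361). The groups treated and BCR-independent did not overlap.

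Gsk3b, a gene of the GSK3 kinase that the compound inhibits, read 6.59, 7.06 and 7.16 in untreated and 6.86, 6.75 and 7.11 in treated BCR-negative cells. The tumours moved in different directions, by 0.27, -0.32 and -0.0499. The fitted difference was -0.0301 (SE 0.13, 95% interval -0.33 to 0.27, limma adjusted p = 0.952), and 0.29 (adjusted p = 0.360) once the title mark was a term. Group means of Gsk3b spanned only 6.91 to 6.99, and 2.80% of its variance lay between groups, less than in all but 4.98% of the genes tested. The second GSK3 gene, Gsk3a, lacked a probe set of its own, as Tcf7 did, and is not analysed here.

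The scaffolds and the priming kinase were likewise not called in treated cells. Apc, the large scaffold mutated in colon tumours, read 6.47, 6.63 and 6.53 in untreated and 6.31, 6.11 and 6.28 in treated BCR-negative cells. These groups did not overlap, and treated cells were lower in 3 of 3 tumours, yet the difference of -0.31 (SE 0.19, limma adjusted p = 0.473) did not pass. With the title mark as a term it was 0.0270, whereas within tumour 2567, where no array carries the mark, it was -0.16. That term draws on all 4 groups, the BCR-independent clones included. Against BCR-positive cells, treated cells differed in Apc by -0.23 (limma adjusted p = 0.624), also with no overlap. The fit shares 1 estimate of spread over the groups, and the spread was widest in the BCR-independent clones, in which Apc read 6.87, 6.36 and 5.87. Their SD was 0.50, against 0.04 to 0.11 in the other groups, and the clone of tumour 2567 was the highest and that of tumour 2676 the lowest of all 12 arrays. Axin1, the scaffold that limits assembly of the complex, differed by 0.0461 (SE 0.0922, 95% interval -0.16 to 0.25), and 76.9% of its variance lay between tumours, with tumour 2646 at 5.23 to 5.53 and the others at 5.56 to 5.75. Csnk1a1 differed by -0.0160 (SE 0.0940, 95% interval -0.23 to 0.20) and stayed within 8.52 to 8.58 in treated cells.

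**Figure D3:**
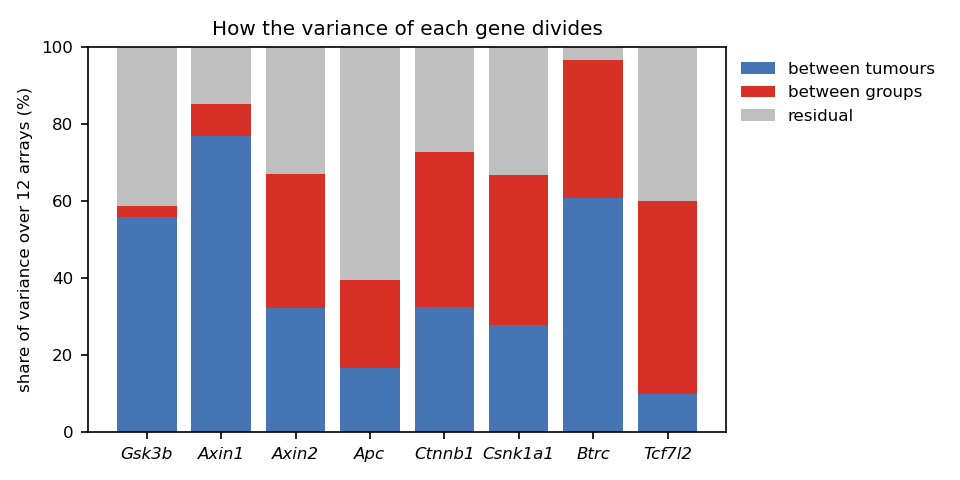
Share of each gene's variance over the 12 arrays (y axis, percent) that lies between tumours, between the 4 groups, or in neither (residual). Btrc has the smallest residual share (3.45%), Axin1 the largest tumour share (76.9%) and Tcf7l2 the largest group share (49.9%).

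Loss of the receptor was examined in untreated BCR-negative against BCR-positive cells of the same tumours. Of the 8 genes 0 were called by limma and 0 had an unadjusted p under 0.05, where 0.00772% and 3.19% of all genes did. The differences lay between -0.0847 (Axin1) and 0.0870 (Ctnnb1). Axin1 and Csnk1a1 were lower, and Apc and Ctnnb1 higher, in 3 of 3 tumours. Their smallest differences within a tumour were near 0, at -0.00735 (Axin1), -0.01042 (Csnk1a1), 0.02005 (Apc) and 0.04855 (Ctnnb1). The share of all genes with the same sign in 3 tumours was not counted. Gsk3b, the kinase named in the title of the study, differed by -0.0578 (SE 0.13, 95% interval -0.36 to 0.24).

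BCR-independent clones were set against BCR-negative cells to ask how cells that persist without the receptor differ. By limma 0 of the 8 genes were called and 0 had an unadjusted p under 0.05, where 0.00772% and 5.99% of all genes did. Differences lay between -0.17 (Apc) and 0.20 (Tcf7l2). Csnk1a1 differed by -0.15 (SE 0.0940), from levels of 8.47, 8.61 and 8.61 to 8.30, 8.63 and 8.32. The clones of tumours 2567 and 2676 were thus lower and that of tumour 2646 was level. Gsk3b was 0.37 higher in the clone of tumour 2567 and 0.21 and 0.20 lower in those of 2646 and 2676, and without tumour 2567 the fitted difference of -0.0098 became -0.20.

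Against BCR-positive cells, BCR-independent cells again gave 0 of 8 calls by limma and 0 at an unadjusted p under 0.05, where 0.0849% and 9.61% of all genes passed. Csnk1a1 had the smallest p, with a difference of -0.21 (SE 0.0940, limma adjusted p = 0.520), with 1 tumour level. Tcf7l2 was higher in 3 of 3 tumours, by a fitted 0.25 (SE 0.13, limma adjusted p = 0.589). Between treated and BCR-independent cells 0 of 8 were called by limma, beside 0.162% of all genes. There 3 of 8, namely Btrc, Tcf7l2 and Ctnnb1, had an unadjusted p under 0.05, beside 12.3% of all genes, and all 3 were lower in treated cells of 3 of 3 tumours.

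The other genes of the pathway were taken from 7 lists by role, of 132 genes beside those above, of which 127 had a single-gene probe set and 101 were tested. In treated against untreated BCR-negative cells limma called 1 of them, Smarca4, and 4 were higher and 7 lower at an unadjusted p under 0.05. Of all genes 1.91% were called and 16.6% had such a p, shares against which every list under this comparison is to be read; the shares of the 101 are no larger. The median difference of the 101 was -0.0133, against 0.0256 for all genes. Smarca4 (BRG1), the ATPase of SWI/SNF complexes and a coactivator of beta-catenin, read 9.57, 10.16 and 9.82 in untreated cells. In treated cells it read 8.77, 9.28 and 9.21. The groups did not overlap, and the difference was -0.77 (SE 0.0931, limma adjusted p = 0.0139). It was also called against BCR-positive cells (-0.58, adjusted p = 0.0369) and against BCR-independent cells (-0.71, adjusted p = 0.0245) by limma, comparisons that share the treated arrays. Leaving out tumour 2567, 2646 or 2676 ended the first call, at -0.75, -0.71 and -0.84 with limma adjusted p-values of 0.0806, 0.280 and 0.0887, as did the title mark as a term (-0.78, adjusted p = 0.0691). The other two calls were likewise lost without any one tumour, with limma adjusted p-values of 0.120 to 0.351 against BCR-positive and 0.146 to 0.360 against BCR-independent cells, and with just the compared groups fitted (0.213 and 0.232). Once the title mark was a term their limma adjusted p-values were 0.137 and 0.0366. Without the tumour block the 3 adjusted p-values were 0.379, 0.689 and 0.779.

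Among 15 tested partners of the destruction complex and of degradation, 0 were called by limma in treated cells, with 1 higher and 1 lower at an unadjusted p under 0.05. Tnks, a tankyrase that marks axin proteins for degradation, differed by -0.46 (SE 0.15, limma adjusted p = 0.150). Csnk1e, a casein kinase 1 isoform, differed by 0.31 (SE 0.12, limma adjusted p = 0.228). Fbxw11, the paralogue of Btrc, was not called. It read 6.13, 6.17 and 6.69 in untreated cells of tumours 2567, 2646 and 2676, and 6.29, 6.01 and 6.54 in treated cells. Its group means were 6.33 untreated and 6.28 treated. Of 9 genes that bind GSK3 or relay the receptor signal, 0 were called by limma and 3 were lower at an unadjusted p under 0.05, beside 16.6% of all genes in either direction. Frat1, a GSK3-binding protein that competes with axin, differed by -0.55 (SE 0.17, limma adjusted p = 0.145), and by -0.31 without tumour 2567. Csnk1g2, a kinase of the LRP coreceptors, differed by -0.39 (SE 0.12, limma adjusted p = 0.147). Both were lower in 3 of 3 tumours.

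Of 18 tested receptors and regulators of receptor turnover, 0 were called by limma, with 1 higher and 1 lower at an unadjusted p under 0.05. The Wnt receptor Fzd9 differed by 0.43 (SE 0.14, limma adjusted p = 0.157). The R-spondin receptor Lgr5, which is also a widely used beta-catenin target, read 4.92, 8.04 and 7.15 in untreated cells of tumours 2567, 2646 and 2676, and 3.55, 6.05 and 5.84 in treated cells. It was lower with treatment in 3 of 3 tumours, but the difference of -1.56 had a wide error (SE 0.54, limma adjusted p = 0.188) and, once the title mark was a term, the difference was -0.85 (adjusted p = 0.667). Of 17 ligands and secretion genes and 6 secreted inhibitors 0 were called by limma, with 1 and 0 at an unadjusted p under 0.05. Most of these had dim probe sets, and those with the smallest p differed by 0.20 (Wnt5b), -0.12 (Rspo2), 0.23 (Sost) and -0.0994 (Dkk1).

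Among 21 tested nuclear cofactors and repressors, Smarca4 was the 1 gene called, and Bcl9l, which links beta-catenin to Pygopus proteins, followed at 0.42 (SE 0.20, limma adjusted p = 0.328). Of 20 tested beta-catenin target genes 0 were called by limma, with 1 higher and 2 lower at an unadjusted p under 0.05, a share near the 16.6% of all genes. Their median difference was -0.0568, with 8 of the 20 above 0 and 12 below. Among those above, Ccnd1 and Zbed3 were higher in treated cells of 3 of 3 tumours. The group means of Ccnd1 were 7.55 untreated and 7.96 treated, and those of Zbed3 were 6.62 and 6.93. Znrf3 had means of 5.82 and 6.25, being level in tumour 2567 and higher in tumours 2646 and 2676. Sox4, a transcription factor of early B cells, read 6.33, 6.65 and 8.27 in untreated and 4.63, 4.73 and 7.43 in treated cells (difference -1.49, SE 0.49, limma adjusted p = 0.162). Like Lgr5 it was lower in 3 of 3 tumours. With array weights both were called (limma adjusted p = 0.0202 for Lgr5 and 0.0311 for Sox4). That setting called 1635 of all 12961 genes, against 248 in the main fit. Lgr5 was also called with only the compared groups fitted (limma adjusted p = 0.0271), for which the share of all genes called is not given here.

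**Figure D4:**
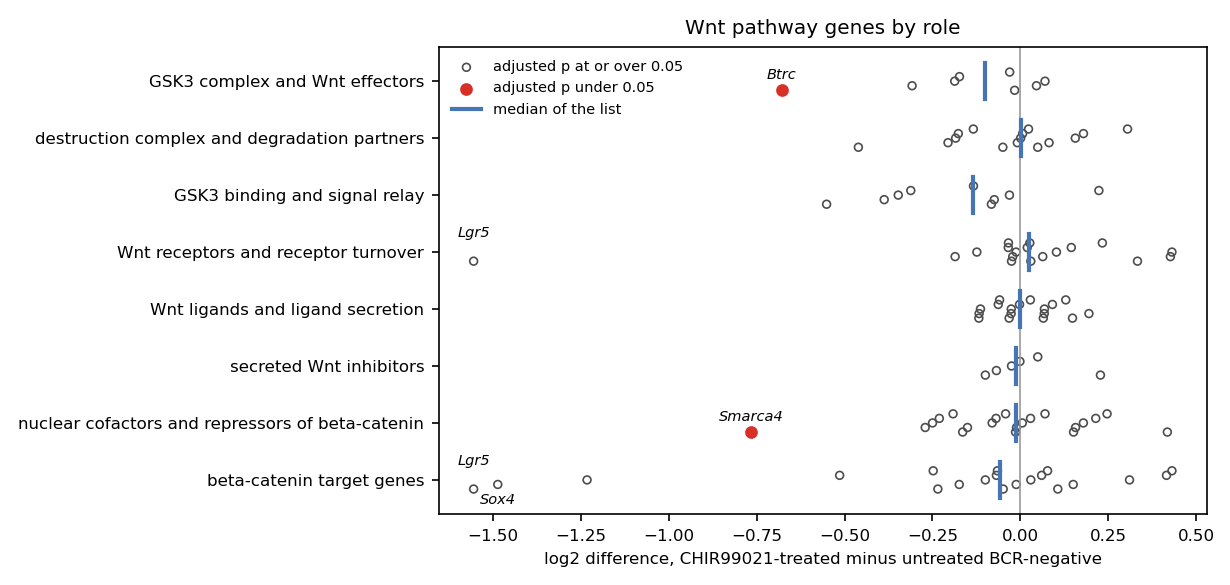
Log2 differences (x axis) of treated against untreated BCR-negative cells for the tested genes of the set and of 7 lists of other Wnt pathway genes (rows); each circle is a gene, red where called, and blue bars are list medians. Btrc (-0.68) and Smarca4 (-0.77) are the called genes, and Lgr5 (-1.56) and Sox4 (-1.49) are the most negative.

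In untreated comparisons the other pathway genes gave no calls. By limma 0 of 101 were called in BCR-negative against BCR-positive cells, 0 in BCR-independent against BCR-negative cells and 0 in BCR-independent against BCR-positive cells, with 2, 6 and 12 at an unadjusted p under 0.05. The shares of all genes with such a p were 3.19%, 5.99% and 9.61%, so that these counts are near the background.

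The genes whose pattern was most like that of Btrc were sought among all tested genes, by Pearson correlation over the 12 arrays after each tumour's mean was removed. They were Atg13 (r = 0.964), an autophagy initiation factor, Rps29 (r = 0.953), a ribosomal protein, and Cnot2 (r = 0.951), a subunit of the CCR4-NOT deadenylase. Atg13 was called in treated against untreated BCR-negative cells (-0.79, SE 0.11, limma adjusted p = 0.0226), and its group means were 6.06 in BCR-positive, 5.94 in BCR-negative, 5.15 in treated and 5.87 in BCR-independent cells. Rps29 (-0.20) and Cnot2 (-0.23) were not called. These correlations describe arrays that share tumours and cultures, they were picked as the highest of all genes, and ribosomal protein genes have near-identical copies whose signal may be mixed.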

How the data were processed

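RNA of sorted lymphoma cells had been hybridised to 12 arrays (Affymetrix Mouse Gene 1.1 ST) in all. The authors deposited 1 table of log2 signals. Per the submitters' processing notes, Affymetrix Power Tools and RMA produced it. RMA corrects background, equalises the arrays and summarises probes, which compresses dim differences. The sources used here name no versions and no annotation. The table held 35556 probe sets, of which 21218 had 1 gene symbol in the platform annotation, 1881 several and 12457 none. For 21185 of these the gene ID was found in RefSeq (GRCm38.p6), and the symbol given there was used, whether or not it differed. Each gene was read from its single-gene probe set with the highest mean. A probe set was kept if 3 or more arrays had it above their 40th percentile. No detection calls were used, so this percentile stands in for background. Precision is limited by having 3 arrays a group.

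In R 4.3.3, limma 3.58.1 (lmFit, eBayes) fitted group and tumour over all 12 arrays (6 residual and 3.41 prior degrees of freedom). The fit was run on simulated data with shifts larger than the Btrc difference. That check does not show how well differences of the reported sizes are found. All 6 pairs of groups were compared. Arrays of a tumour share a lymphoma number in the titles, which is where the pairing comes from. Deviations from group means correlated by 0.284 to 0.792 within a tumour and by -0.716 to 0.165 across tumours. Removing the mean of each group of 3 arrays itself pushes the correlations across tumours downward. No 2 arrays were identical. Intervals are 95% moderated intervals.

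The genes, the pathway and marker lists and the alternatives were chosen with earlier results of these data known. All listed genes of the set are named, with each pathway gene called in any comparison, the 2 of each pathway list with the smallest p under CHIR99021, and the 3 genes most like each called gene of the set. The B cell and myeloid markers, Gsk3a, Fbxw11, Ccnd1, Zbed3 and Znrf3 were named after their values or absence were seen. Alternatives covered the block, the filter, eBayes, array weights, normalization, the groups fitted, probe set averaging, the title mark and each tumour left out. Protein and promoter sequences were not used here.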

Additional observations from a re-analysis of the deposited data

How the results depend on the processing

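The number of the 8 genes called in treated against untreated BCR-negative cells was 1 (Btrc) and became 0 with no replicate block (tumour as block left out), 0 when the title mark was a term and 0 without each tumour in turn (range 0 to 0). Against BCR-positive cells it was 1 and became 0 with no replicate block, 0 with the title mark and 0 when just the 2 groups were fitted, and ranged from 0 to 1 without a tumour, the call being kept without tumour 2567. Against BCR-independent cells it was 0 and became 1, namely Btrc, with array weights, 1 with cyclic loess, 1 with quantile normalization and 1 when the title mark was a term. In no other setting or comparison did the number differ.

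Of the 101 other pathway genes, the 1 called in treated against untreated BCR-negative cells became 0 with no replicate block, 0 with the title mark, 2 when just the 2 groups were fitted and 10 with array weights (under which 1635 of all genes were called), and 0 to 0 without a tumour. Against BCR-positive cells 1 became 0 with no replicate block, 0 with the title mark and 0 with only the 2 groups, and 0 to 0 without a tumour. Against BCR-independent cells 1 became 0 with no replicate block and 0 with only the 2 groups, and 0 to 0 without a tumour. Settings with fewer arrays or a further term have fewer residual degrees of freedom. For the others the cause was not tested. Over 48 differences of the 8 genes and 13 settings, 38 of 618 values had the opposite sign to the reported one, 0 of them in the 2 called differences.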
